A study of Homo sapiens with 12 samples.

Results

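The genes described here encode the U7 small nuclear ribonucleoprotein (U7 snRNP) and the proteins that work with it to make the 3' ends of histone mRNAs. They were chosen by name and by function, not by a measured value, and they are RNU7-1, LSM10, LSM11, SLBP, ZNF473, NPAT, CASP8AP2, CPSF3, SYMPK and CSTF2. These are 10 of the 61163 genes in the count tables, and all of them were found in the tables of both RNA fractions. The set is of interest here because hnRNP UL1 has been described as a partner of the U7 snRNP that lowers the expression of histone genes in arrested cells. The labels name no arrest of the cells used here.

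Most mRNAs end in a poly(A) tail, but the mRNAs of replication-dependent histones end in a conserved stem-loop that is made by a single cleavage. The stem-loop is bound by SLBP, and a purine-rich element downstream of the cleavage site base-pairs with the 5' end of U7 snRNA. U7 snRNA carries a ring of Sm proteins in which LSM10 and LSM11 take the places of SmD1 and SmD2, and LSM11 recruits a cleavage complex that contains the endonuclease CPSF3 (CPSF-73) and the scaffold protein symplekin (SYMPK). Genes and factors meet in a nuclear body next to the histone gene clusters, the histone locus body, which is organised by NPAT.

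Sequenced RNA came from the lines HEK WT and HEK UL1 KO after fractionation into a nucleolar fraction (NO) and a cytoplasmic-nuclear fraction (CN), which holds the rest of the cell. HEK WT is HEK293T, an established line of human embryonic kidney cells that expresses the SV40 large T antigen, with a wild-type genotype, and HEK UL1 KO is a HEK293T line in which HNRNPUL1 was knocked out with CRISPR-Cas9. No other treatment separates the groups, and each genotype and fraction has 3 replicates, 12 libraries in all. One knockout line is described, so features of this line and effects of the genotype cannot be told apart, and in bulk RNA a lower level per cell and a smaller number of expressing cells cannot be told apart either.

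Libraries of NO held 37141666 to 83019079 counts and those of CN 54349399 to 104040073, and 55.3 to 78.7% of counts came from rRNA genes because rRNA was not depleted. The targeted gene, HNRNPUL1, had 17.8, 15.4 and 17.99 CPM (counts per 1000000, normalised with TMM factors; here and below in the order of the replicate numbers) in the HEK WT libraries of CN and 4.75, 4.798 and 4.86 in those of HEK UL1 KO. In NO it had 15.3, 21.6 and 9.30 CPM in HEK WT and 4.09, 3.86 and 3.57 in HEK UL1 KO, so that the genotypes did not overlap in either fraction. Of the nucleolar RNAs, SNORD3A (U3 snoRNA) had at least 199993 counts in each NO library and at most 28310 in each CN library. SNORD13 had 1888 to 8820 in NO and 54 to 184 in CN, but RMRP overlapped, with 1628 to 9145 and 1198 to 2240. The counts of the cytoplasmic mRNAs, not scaled by depth, overlapped as well. GAPDH had 1283 to 3477 in NO and 3067 to 3842 in CN, ACTB 1560 to 3284 and 3264 to 5270, and EEF1A1 7506 to 16015 and 15035 to 23721. Of the markers expected in HEK293T, PAX2, LHX1, CDH2 and VIM were counted in each library. The counts of VIM and LHX1 did not overlap between the genotypes in either fraction, and those of CDH2 did not in CN. VIM had 2278 to 2993 counts in CN of HEK WT and 616 to 912 in CN of HEK UL1 KO, and 1173 to 1259 against 431 to 889 in NO. LHX1 had 12 to 20 against 40 to 58 in CN and 7 to 14 against 26 to 64 in NO. CDH2 had 1715 to 2406 against 1321 to 1655 in CN. These counts are not scaled by depth, which in CN was 80139835 to 104040073 in HEK WT and 54349399 to 69849278 in HEK UL1 KO. The lower CDH2 counts of HEK UL1 KO in CN therefore do not show a lower level. The part of these differences in marker counts in the results was not tested. Of the markers of blood, endothelium and liver, PTPRC had 5 to 178 counts, PECAM1 12 to 246 and ALB 0 to 26. Replicate 3 of HEK WT in NO stood apart from its group. Its TMM factor was 1.40, against 0.690 and 0.622 in the other HEK WT libraries of NO, and it had the lowest CPM of its group for all 10 genes. The HEK UL1 KO libraries of NO had factors of 1.34, 1.09 and 1.15, nearer to that of replicate 3. Without replicate 3, these factors do not overlap between the genotypes, and the part of this scaling in the calls made without it was not tested. Where removal of replicate 3 of HEK WT changed a call in NO, both values are given.

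RNU7-1, the gene of U7 snRNA, is shown first because its sequence sets U7 apart from the spliceosomal snRNAs that are compared with it below. It lies on chromosome 12 of GRCh38 (chr12:6943816-6943878, plus strand) and makes an RNA of 63 bases, printed 5' to 3' as DNA letters from GENCODE 44 with its Sm-binding letters, AATTTGTC, in capitals at positions 21 to 28.
RNU7-1: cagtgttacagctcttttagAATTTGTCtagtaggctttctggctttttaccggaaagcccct
These 8 letters were found in 0 of the 12 Sm-class spliceosomal snRNAs searched on the RNA strand, which are 116 to 191 bases long. The other sequence is the annotated 3' end of a histone transcript, without the downstream element that pairs with U7. It is shown for H2AC20 because this gene had the highest counts in CN of HEK WT (1608 to 1754 per library) among histone genes with the stem-loop letters. The stretch of 28 bases closes the transcript (chr1:149887384-149887411, plus strand), and the capitals mark the stem-loop, whose 16 letters were searched for with any base allowed at position 10 of them.
H2AC20: gaccaaaGGCTCTTTTTAGAGCCaccca
On the transcript strand, the stem-loop letters were present in the last 100 bases of a transcript in 47 of the 66 replication-dependent histone genes (71.2%) and in 5 of 19610 other protein-coding genes (0.0255%). Other variants of the stem-loop were not searched for.

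The first comparison asked whether the machinery itself was expressed at another level in HEK UL1 KO than in HEK WT. In CN, NPAT, CPSF3 and SYMPK fell and CASP8AP2 rose, and the other 6 genes did not pass the test. These 4 called genes of 10 stand beside a background of 37.9% of all 27234 genes tested in CN, with 15.6% of all genes called higher and 22.3% called lower, so the share of the set is near that of all genes. The CPM of the genotypes did not overlap for 7 of the 10 genes, against 52.8% of all genes tested. The median log2 fold change of the 10 genes was -0.23, against 0.04 for all genes tested, and the log2 fold changes ran from -0.79 to 0.43. In NO, 9 of the 10 genes had enough counts to be tested and none was called with edgeR, against 0.939% of 34836 genes (0.365% higher and 0.574% lower). At an unadjusted p under 0.05, 2 of the 9 passed (LSM10 and SYMPK), against 16.0% of all genes, and DESeq2 called 1 (SYMPK), against 4.22%. The CPM of the genotypes did not overlap for LSM10 and SYMPK, against 20.1% of all genes tested in NO. With an SE of 0.27 to 0.37 on the log2 scale for the 9 genes, a test that was not passed in NO does not show that their levels were the same. Without replicate 3 of HEK WT, all 10 genes were tested in NO and 5 were called, all lower (LSM10, LSM11, ZNF473, NPAT and SYMPK), against 25.1% of 36336 genes called and 15.3% called lower in the same fit, and their median log2 fold change was -0.74 against 0.09 for all genes. All 9 log2 fold changes in NO were below 0, with a median of -0.46 against 0.00 for all genes tested. That sign depends on the scaling between libraries. With total counts in place of TMM, the median of all genes moved to 0.40 in NO and to 0.24 in CN, and that of the set to 0.07 and -0.03.

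**Figure D1:**
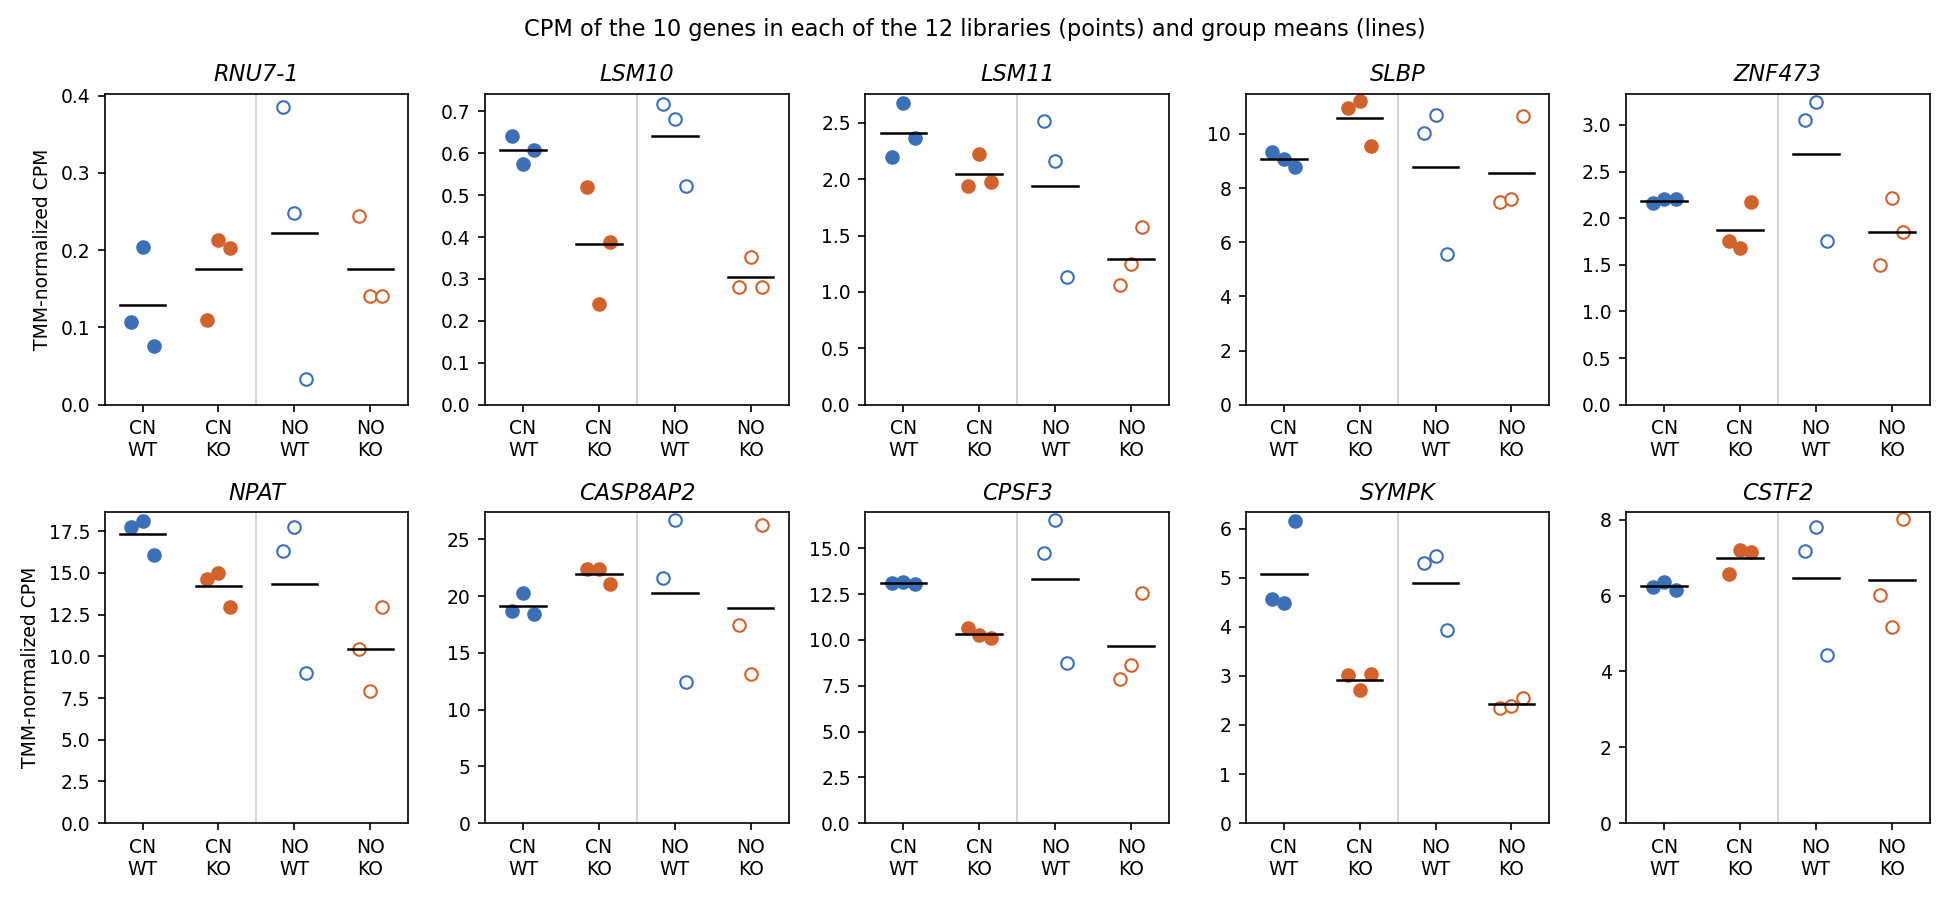
TMM-normalised CPM (vertical axes, each starting at 0) of the 10 genes in the 12 libraries, with CN as filled and NO as open circles, HEK WT (WT) in blue, HEK UL1 KO (KO) in orange and the group mean of 3 libraries as a line. SYMPK is lower in all 3 HEK UL1 KO libraries of both fractions, CPSF3 separates in CN, and RNU7-1 stays below 0.4 CPM in each library.

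The U7 snRNP is described first. RNU7-1 had very low counts. The HEK WT libraries of CN held 9, 17 and 6 reads and those of HEK UL1 KO 8, 16 and 12, which is 0.107, 0.203 and 0.0759 CPM against 0.109, 0.213 and 0.203 CPM. The HEK WT libraries of NO held 15, 8 and 2 reads and those of HEK UL1 KO 27, 6 and 6. The genotypes overlapped in both fractions. In CN, the mean was 0.129 ± 0.0665 CPM in HEK WT and 0.175 ± 0.0571 in HEK UL1 KO (SD, n = 3), with a log2 fold change of 0.43 (SE 0.46, edgeR adjusted p = 0.492) and an exact two-sided permutation p of 0.3. When 1 library of CN was left out, that log2 fold change ran from 0.21 to 0.91. The ratio of the summed reads, scaled by the effective library sizes, was 1.34 with a 95% counting interval of 0.808 to 2.23. In NO, RNU7-1 did not pass the filter on low counts, and its mean was 0.222 ± 0.177 CPM in HEK WT and 0.175 ± 0.0593 in HEK UL1 KO (SD, n = 3, exact two-sided permutation p = 0.7), with a ratio of 1.04 (0.613 to 1.79). When replicate 3 of HEK WT was left out, the mean of that group was 0.316 ± 0.0973 CPM (SD, n = 2), its libraries lay above those of HEK UL1 KO, and the exact two-sided permutation p was 0.2. No difference in U7 snRNA between the genotypes was detectable at this depth. The intervals cover counting error only and hold both a fall and a rise, from 0.808 to 2.23 in CN and from 0.613 to 1.79 in NO. In NO the ratio of summed reads was above 1 though the mean CPM was lower in HEK UL1 KO, as deeper libraries weigh more in the ratio.

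Several features of the gene bear on how its reads can be counted. U7 snRNA is shorter than the reads of 75 bases, and 62 of its 63 bases lie within exons of C12orf57 on the same strand, so that reads of the 2 genes may be shared or left out as ambiguous in the counting. C12orf57 itself had 19 to 110 counts per library and rose in CN, from 0.507 ± 0.00779 CPM in HEK WT to 0.845 ± 0.172 in HEK UL1 KO (SD, n = 3, log2 fold change 0.73, SE 0.21, edgeR adjusted p = 0.0208). The genome also holds many U7 pseudogenes. The tables list 171 of them, 91 had no count in any library, and together they held 241 reads over the 12 libraries, against 132 for RNU7-1, with RNU7-41P first at 34. The part of these features in the RNU7-1 values was not tested.

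LSM10, one of the U7-specific ring proteins, had low levels as well. In CN, it was at 0.642, 0.574 and 0.607 CPM in HEK WT and at 0.520, 0.240 and 0.388 CPM in HEK UL1 KO. In NO, it was at 0.719, 0.681 and 0.523 CPM in HEK WT and at 0.280, 0.353 and 0.282 CPM in HEK UL1 KO. Every HEK UL1 KO library was below every HEK WT library of its fraction, but the difference passed the test in neither. The log2 fold change was -0.67 in CN (SE 0.28, edgeR adjusted p = 0.0854) and -1.07 in NO (SE 0.37, edgeR adjusted p = 0.175), on 12 to 54 reads per library. Without replicate 3 of HEK WT, LSM10 was called in NO with an edgeR adjusted p of 0.0192 (0.0192 to 0.734 over the alternative settings). In CN it was called without the filter on low counts (0.0491) and without replicate 1 of HEK UL1 KO (0.0419), with a range of 0.0419 to 0.317.

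LSM11, the ring protein that recruits the cleavage complex, was at 2.20, 2.68 and 2.37 CPM in HEK WT and at 1.94, 2.23 and 1.98 CPM in HEK UL1 KO in CN. The genotypes overlapped, and the log2 fold change was -0.24 (SE 0.13, edgeR adjusted p = 0.164). In NO, the mean was 1.94 ± 0.721 CPM in HEK WT and 1.30 ± 0.257 in HEK UL1 KO (SD, n = 3), with a log2 fold change of -0.58 (SE 0.33, edgeR adjusted p = 0.388) that became -0.89 (edgeR adjusted p = 0.0172, range over the alternative settings 0.0172 to 0.984) without replicate 3 of HEK WT.

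Next come SLBP, which binds the stem-loop and stays with the mRNA through export and translation, and ZNF473 (ZFP100), a zinc finger protein that bridges the SLBP-bound stem-loop and the U7 snRNP. SLBP was at 9.35, 9.07 and 8.78 CPM in HEK WT and at 10.96, 11.2 and 9.54 CPM in HEK UL1 KO in CN. All 3 HEK UL1 KO libraries were above all 3 HEK WT libraries, and the log2 fold change of 0.22 (SE 0.08) missed the threshold with an edgeR adjusted p of 0.0534. It passed without replicate 3 of HEK WT (0.0435) or of HEK UL1 KO (0.0186) and with at least 10 counts required in every library (0.0108), and the adjusted p ran from 0.0108 to 0.712 over the alternatives. In NO, its log2 fold change was -0.03 (SE 0.31, edgeR adjusted p = 0.967) and changed sign with the scaling. ZNF473 was at 2.16, 2.20 and 2.20 CPM in HEK WT and at 1.75, 1.68 and 2.18 CPM in HEK UL1 KO in CN. Its groups overlapped through a single HEK UL1 KO library, and the log2 fold change was -0.23 (SE 0.13, edgeR adjusted p = 0.194). In NO it was -0.53 (SE 0.30, edgeR adjusted p = 0.389), and -0.80 (edgeR adjusted p = 0.0217, range 0.0217 to 0.993) without replicate 3 of HEK WT. Exons of ZNF473 overlap those of VRK3 on the opposite strand, and the strand setting of the counting is not given in the sources used here. In CN, VRK3 fell (log2 fold change -0.51, SE 0.15, edgeR adjusted p = 0.0207).

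NPAT and CASP8AP2 (FLASH) are the members of the histone locus body in the set. NPAT activates transcription of histone genes at entry into S phase, and FLASH binds LSM11 and helps to hold the cleavage complex. They moved in opposite directions in CN. NPAT was at 17.8, 18.1 and 16.1 CPM in HEK WT and at 14.6, 15.02 and 12.9 CPM in HEK UL1 KO, with all HEK UL1 KO libraries below all HEK WT libraries. NPAT fell by 18.1% (log2 fold change -0.29, SE 0.08, edgeR adjusted p = 0.0181). CASP8AP2 was at 18.7, 20.3 and 18.4 CPM in HEK WT and at 22.4, 22.4 and 21.0 CPM in HEK UL1 KO, again without overlap and with HEK UL1 KO on top. Its rise of 14.7% (log2 fold change 0.20, SE 0.07) was at the threshold, with an edgeR adjusted p of 0.0494, and it passed in 3 of the 13 alternative settings, with adjusted p from 0.00774 to 0.807. The call was lost in the other 10, which were leaving out replicate 1 (0.14) or replicate 2 (0.0512) of HEK WT or replicate 1 (0.223) or replicate 2 (0.127) of HEK UL1 KO, DESeq2 (0.0734), total counts (0.0971), TMM without rRNA genes (0.0526), no filter (0.395), the replicate block (0.0625) and all 12 libraries in one fit (0.807). NPAT passed in 8 of 13, with adjusted p from 0.014 to 0.705. The NPAT call was lost without replicate 1 (0.0538) or replicate 2 (0.0589) of HEK WT, without replicate 3 of HEK UL1 KO (0.0797), with total counts (log2 fold change -0.10) and with all 12 libraries in one fit (0.315).

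NPAT and ATM are transcribed away from each other, and 428 bases lie between them. ATM, the kinase that signals DNA double-strand breaks, fell as well in CN, from 38.7 ± 1.05 CPM in HEK WT to 33.4 ± 1.75 in HEK UL1 KO (SD, n = 3, log2 fold change -0.21, SE 0.07, edgeR adjusted p = 0.0414). In NO, NPAT had a log2 fold change of -0.46 (SE 0.32, edgeR adjusted p = 0.484) and CASP8AP2 one of -0.10 (SE 0.35, edgeR adjusted p = 0.903). Without replicate 3 of HEK WT, NPAT was at -0.72 with an edgeR adjusted p of 0.0489, in a range of 0.0489 to 0.896.

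The last group is the cleavage complex, whose members also act on ordinary poly(A) sites. The SYMPK values gave the largest called difference of the set. In CN, SYMPK was at 4.57, 4.49 and 6.15 CPM in HEK WT and at 3.01, 2.72 and 3.04 CPM in HEK UL1 KO. In NO, it was at 5.29, 5.45 and 3.93 CPM in HEK WT and at 2.35, 2.38 and 2.56 CPM in HEK UL1 KO. The genotypes were well apart in both fractions. SYMPK fell by 42.4% in CN (log2 fold change -0.79, SE 0.13, edgeR adjusted p = 9.43e-04) and passed in all 13 alternative settings, with adjusted p from 1.2e-07 to 0.0219. In NO the log2 fold change was -1.01 (SE 0.27) with an edgeR adjusted p of 0.0789. There it passed in 4 of 13 settings, which were DESeq2 (0.0151), no filter (0.0441), all 12 libraries in one fit (0.0114) and leaving out replicate 3 of HEK WT (0.00282). A lncRNA gene lies antisense to SYMPK with overlapping exons, and its share of the counts was not tested.

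CPSF3, the endonuclease, had the smallest spread between replicates of CN relative to its level among the 10 genes. It was at 13.1, 13.2 and 13.1 CPM in HEK WT and at 10.6, 10.3 and 10.1 CPM in HEK UL1 KO in CN. All HEK UL1 KO libraries were below all HEK WT libraries, and CPSF3 fell by 21.2% (log2 fold change -0.34, SE 0.07, edgeR adjusted p = 0.00229). It passed in 11 of 13 alternative settings and was lost with total counts (log2 fold change -0.14, edgeR adjusted p = 0.52) and with all 12 libraries in one fit (-0.43, 0.215). In NO its log2 fold change was -0.46 (SE 0.31, edgeR adjusted p = 0.471), and -0.71 (edgeR adjusted p = 0.0522) without replicate 3 of HEK WT. CSTF2 (CstF-64), which binds RNA downstream of poly(A) sites and is also found in the histone cleavage complex, was at 6.23, 6.37 and 6.14 CPM in HEK WT and at 6.58, 7.21 and 7.16 CPM in HEK UL1 KO in CN. HEK UL1 KO was above HEK WT without overlap, but the log2 fold change of 0.16 (SE 0.08) did not pass, with an edgeR adjusted p of 0.125. With at least 10 counts required in every library it passed (0.0274, range 0.0274 to 0.838). In NO, CSTF2 was at -0.01 (SE 0.29, edgeR adjusted p = 0.99).

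**Figure D2:**
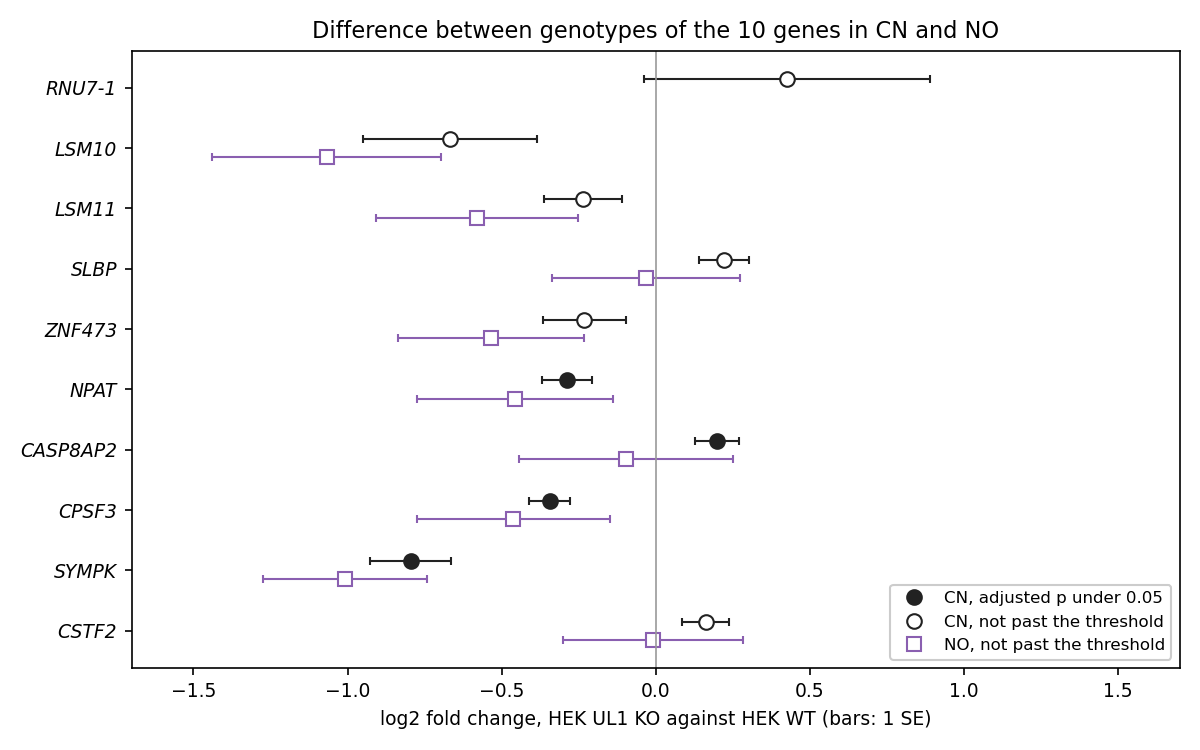
Log2 fold change of HEK UL1 KO against HEK WT (horizontal axis, bars 1 SE) of the 10 genes in CN (circles) and NO (squares, without RNU7-1), filled where the edgeR adjusted p is under 0.05. The 4 filled points are all in CN, with SYMPK at -0.79, CPSF3 at -0.34, NPAT at -0.29 and CASP8AP2 at 0.20, and the SE is larger in NO.

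Whether the difference between genotypes itself differed between the fractions was tested as their interaction. In the interaction of genotype and fraction over all 12 libraries, 0 of the 10 genes were called with edgeR and 0 with DESeq2, and 0 passed at an unadjusted p under 0.05, against 0.114% of 37806 genes called with edgeR, 0.290% with DESeq2 and 3.32% at an unadjusted p under 0.05. The log2 differences between the fractions ran from -0.41 to 0.04, with 0.568 as the lowest unadjusted p. The count of 0 does not show that the differences were equal in both fractions.

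To set levels of different genes against each other, CPM were divided by the joined length of all annotated exons of a gene. This length can exceed that of the mRNA expressed and then lowers the value. It was 10532 bases for SYMPK and 6898 for ZNF473, so the order below depends on the annotation. As CPM per kilobase in CN of HEK WT, SLBP (4.81 ± 0.152) and CPSF3 (3.56 ± 0.0157) were highest. CASP8AP2 (2.35 ± 0.124), NPAT (2.30 ± 0.145) and CSTF2 (2.28 ± 0.0429) lay close together, within the spread of their replicates. RNU7-1 was at 2.04 ± 1.06, on 6 to 17 reads per library over 63 bases, of which 62 lie within C12orf57 exons. Its gene is shorter than the reads, so this value does not rank U7 snRNA among the mRNAs. The lowest were SYMPK (0.481 ± 0.0887), LSM10 (0.404 ± 0.0223), LSM11 (0.368 ± 0.0373) and ZNF473 (0.317 ± 0.00332; all SD, n = 3). Of these, SYMPK and LSM10 differed by less than the spread of SYMPK, and LSM10 and LSM11 by less than that of LSM11. The mRNAs of LSM10 and LSM11 thus had lower per-length levels than that of the nuclease CPSF3. Levels of the proteins were not measured here.

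In HEK WT, the fractions themselves were compared. Of the 10 genes tested, 5 were called lower in NO and 0 higher, against 20.9% of 29340 genes called lower and 52.8% called in either direction. LSM11 had a log2 fold change of -0.82 (SE 0.25), NPAT one of -0.77 (SE 0.19), SLBP one of -0.55 (SE 0.18), SYMPK one of -0.53 (SE 0.19) and CPSF3 one of -0.47 (SE 0.17), with edgeR adjusted p from 0.00799 to 0.043. The other 5 genes had log2 fold changes of -0.44 (CSTF2), -0.42 (CASP8AP2), -0.40 (LSM10), -0.20 (ZNF473) and 0.20 (RNU7-1). The median was -0.46, against 0.02 over all genes tested. With total counts, by which the median of all genes moved to 0.37, none of the 10 was called, against 23.8% of all genes, and ZNF473 was above 0. With at least 10 counts required in every library 1 was called, against 40.2% of all genes, and with the replicate block 1, against 32.6%. Leaving out 1 library gave 2 to 7 calls, against 40.6 to 63.1% of all genes, NPAT being among them each time, with an edgeR adjusted p of at most 0.0285. RNU7-1 was not detectably concentrated in either fraction, with an SE of 0.69.

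U7 snRNA was next set against the spliceosomal snRNAs, which carry the common Sm ring and pass through the same assembly pathway. In CN, 8 of the 12 Sm-class snRNA genes fell in HEK UL1 KO and none rose, with a median log2 fold change of -1.05. Of all genes, 22.3% were called lower there and 37.9% in either direction. DESeq2 called 8 of the 12, against 32.3% of all genes, and total counts 8, against 19.9%. The log2 fold change was -1.59 for RNU11 (SE 0.15, edgeR adjusted p = 2.15e-05), -1.58 for RNU4-1 (SE 0.23, 3.77e-04), -1.26 for RNU4ATAC (SE 0.17, 2.72e-04) and -1.14 for RNU2-1 (SE 0.23, 0.00311). The 4 RNU1 genes, with log2 fold changes of -0.28 to -0.19, were not called. RNU1 and RNU2 exist in near-identical copies, between which reads cannot be divided with certainty. In NO, none of the 12 was called with edgeR, 3 passed at an unadjusted p under 0.05, against 16.0% of all genes, 1 was called with DESeq2, against 4.22%, and the median was -0.73. Leaving out replicate 3 of HEK WT, 7 of the 12 were called lower in NO, against 15.3% of all genes. In CN, the log2 ratio of RNU7-1 to the summed Sm-class snRNAs of the same library, which does not depend on scaling, was -14.2 ± 0.809 in HEK WT and -13.0 ± 0.546 in HEK UL1 KO (SD, n = 3). The ratio was 1.22 higher in HEK UL1 KO, with an exact two-sided permutation p of 0.2, where 0.1 is the smallest that 3 against 3 libraries allow. Without the RNU1 and RNU2 genes the difference was 1.88, the genotypes did not overlap and p was 0.1 (exact). With 594 snoRNA genes as the reference the difference was 0.71, with overlap (exact two-sided permutation p = 0.2). Leaving out 1 library of CN gave 0.825 to 1.63. In NO the difference from the Sm-class snRNAs was 1.02 (exact two-sided permutation p = 0.6), with overlap, and that from snoRNA genes 0.99 (exact, 0.6). It ran from 0.167 to 1.46 when 1 library of NO was left out, with 0.167 without replicate 3 of HEK WT and 0.488 without replicate 1 of HEK UL1 KO.

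**Figure D3:**
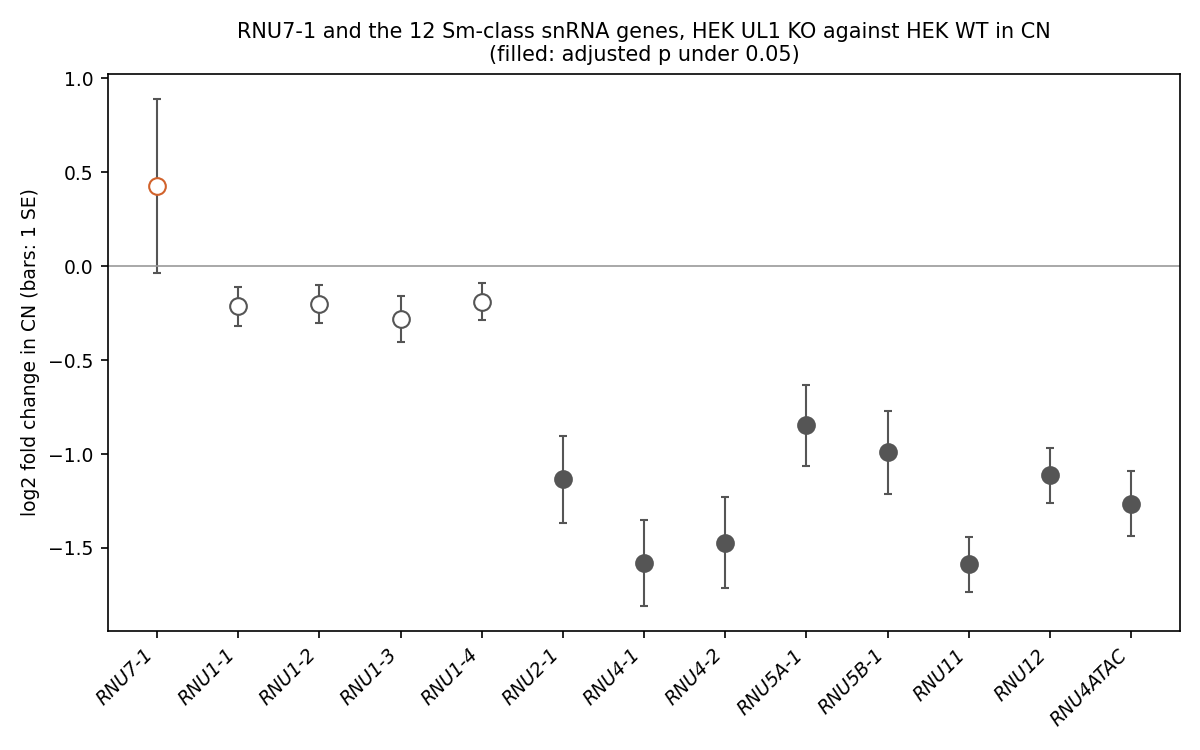
Log2 fold change in CN of HEK UL1 KO against HEK WT (vertical axis, bars 1 SE) of RNU7-1 (orange) and the 12 Sm-class snRNA genes (grey), filled where the edgeR adjusted p is under 0.05. RNU7-1 is at 0.43 with an SE of 0.46, the RNU1 genes are between -0.28 and -0.19, and the other 8 genes are at -0.85 or lower.

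The remaining genes of the pathway were taken from lists by role, 57 genes of which 56 were tested in each fraction. In CN, 31 were called, 7 higher and 24 lower, with a median log2 fold change of -0.17 against 0.04 for all genes, and the background is again 37.9%. DESeq2 called 28, against 32.3% of all genes, and total counts 9, against 19.9%. In NO, none of the 56 was called with edgeR, 13 passed at an unadjusted p under 0.05, against 16.0% of all genes, and DESeq2 called 3, against 4.22%. Without replicate 3 of HEK WT, 24 were called with edgeR in NO, all lower, against 15.3% of all genes called lower. The list with the most calls in CN was snRNP assembly, the SMN complex that loads the Sm ring and the methylosome that prepares Sm proteins. Of its 12 genes, 8 fell and 1 rose. GEMIN7 was at -0.78 (SE 0.19, edgeR adjusted p = 0.0091), SMN1 at -0.61 (SE 0.09, 3.55e-04), the arginine methyltransferase PRMT5 at -0.53 (SE 0.09, 0.00112) and GEMIN2 at -0.40 (SE 0.12, 0.0205), while the gene that rose, STRAP, was at 0.30 (SE 0.07, 0.00563). SMN1 shares its sequence with SMN2, so its reads cannot be assigned with certainty. With total counts, the call of STRAP remained (log2 fold change 0.51, adjusted p = 0.0356) and none of the 8 falls was called, with SMN1 at an adjusted p of 0.0913 and GEMIN7 at 0.0795. The call of STRAP was lost without the filter on low counts (0.27, adjusted p = 0.104).

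Of the 5 Sm proteins that U7 shares with spliceosomal snRNPs, SNRPE fell in CN (log2 fold change -0.78, SE 0.10, edgeR adjusted p = 1.81e-04) and the other 4 were not called. Neither of the genes of SmD1 and SmD2, which LSM10 and LSM11 replace in U7, was called, with log2 fold changes of -0.07 and 0.02. Of 7 tested genes of SNAPc and Integrator, which make snRNAs, SNAPC5 (0.94) and INTS9 (0.38) rose, and SNAPC3 (-0.45) and INTS4 (-0.23) fell. The call of INTS4 was lost with DESeq2 (adjusted p = 0.132), without the filter (0.127) and with total counts (-0.03, 0.904), and that of INTS9 without the filter (0.0766). Of 8 other cleavage and polyadenylation factors, CPSF1 rose (0.78, SE 0.12, edgeR adjusted p = 4.83e-04) and CSTF2T (-0.65), FIP1L1 (-0.53), WDR33 (-0.32) and CPSF2 (-0.27) fell. CSTF2T, which encodes the close paralog of CSTF2, thus fell while CSTF2 itself was not called. CPSF2 (CPSF-100), the partner of CPSF3 in the nuclease module, fell as well, but with total counts it was at -0.07 (adjusted p = 0.766) and without the filter its call was lost too (0.0619).

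Among 5 genes of histone transcription and S phase entry, POU2F1 (Oct-1; -0.50), CCNE1 (-0.49) and CCNE2 (-0.37) fell, the cyclins E being those that activate the kinase acting on NPAT. With DESeq2, POU2F1 was called (adjusted p = 2.03e-06) and CCNE1 (0.105) and CCNE2 (0.0748) were not, and with total counts none of the list was. CDK2 and HINFP were not called. Of 8 cap-binding and elongation cofactors, NELFE (0.52) and NELFA (0.34) rose, and both subunits of the nuclear cap-binding complex, NCBP1 (-0.56) and NCBP2 (-0.38), fell. The call of NELFA was lost without the filter (adjusted p = 0.116). Of 9 genes of histone mRNA translation and decay, MIF4GD, the SLBP-interacting translation factor, rose (1.15, SE 0.21, edgeR adjusted p = 0.00174). TUT7, a uridylyltransferase that marks histone mRNA for decay, fell by 1.12 on the log2 scale (SE 0.08, edgeR adjusted p = 5.96e-06), and LSM1 (-0.49) and DCP2 (-0.47), of the decay machinery, fell as well. With total counts, the 9 calls among the genes of the pathway were those of STRAP, SNRPE, SNAPC5, INTS9, CPSF1, NELFE, NELFA, MIF4GD and TUT7, and the other calls in these lists were lost.

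**Figure D4:**
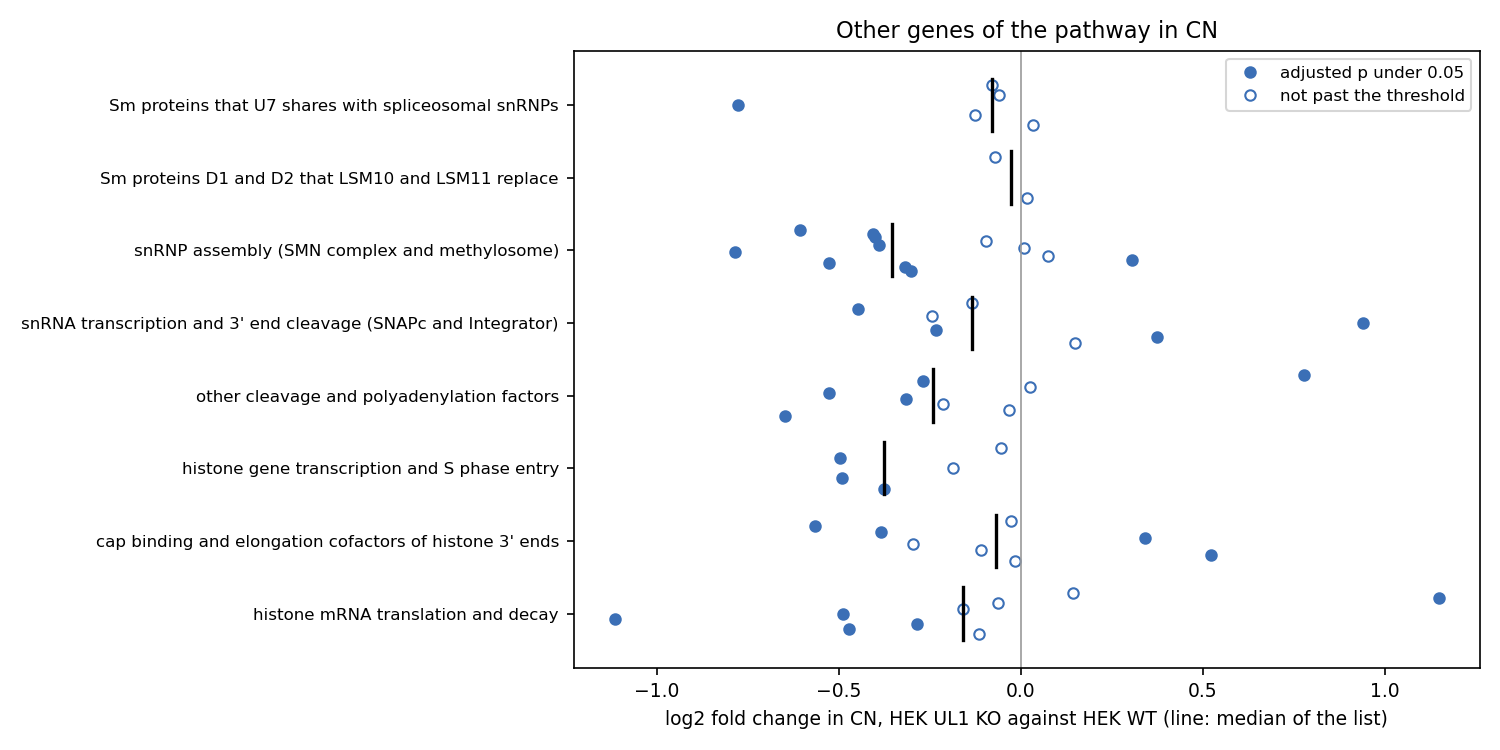
Log2 fold change in CN of HEK UL1 KO against HEK WT (horizontal axis) of the 56 tested genes in 8 lists (rows), with the median of each list as a line and filled points for an edgeR adjusted p under 0.05. The list medians lie between -0.37 and -0.03, and the most distant points are TUT7 at -1.12 and MIF4GD at 1.15.

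The histone genes, whose transcripts the machinery cleaves, were counted in the same fits. Of 66 listed replication-dependent histone genes, 50 were tested in each fraction. In CN, 16 fell and 3 rose, against 22.3% of all genes called lower and 15.6% called higher, so the share called is near that of all genes. The median log2 fold change was -0.26, and DESeq2 called 18 (against 32.3% of all genes) and total counts 10 (against 19.9%). When 1 library of CN was left out, 15 to 26 histone genes were called, against at least 25.6% of all genes in each case. The genes that rose were H2BC8 (2.48), H2AC8 (2.23) and H2BC7 (0.85), and the largest fall was that of H3C7 (-2.83). In NO, H2BC8 (2.02, SE 0.47, edgeR adjusted p = 0.0499) and H2AC8 (1.79, SE 0.39, 0.038) rose and H3C7 (-3.00, SE 0.52, 0.00934) fell, against 0.939% of all genes called. H3C7 and H2BC8 had as few as 1 and 7 counts in a library of NO. No histone gene was called in NO with total counts (0.0287% of all genes) or with at least 10 counts in every library (0.563%). The median in NO was -0.81, and 30 of the 50 passed at an unadjusted p under 0.05, against 16.0% of all genes. Without replicate 3 of HEK WT, 46 of 51 were called in NO, 44 lower and 2 higher, against 25.1% of all genes called and 15.3% called lower. Without replicate 2 of HEK UL1 KO, 1 was called in NO, against 0.445% of all genes. Several histone genes are near-identical in sequence, so their reads may be divided between copies.

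The position of the 10 genes in the genome was a further feature that they were not chosen by, and it was examined after their values were known. In CN, the log2 fold change of 9 of the 10 genes had the sign of the median of the tested genes within 1 Mb on either side, against 61.3% of 21103 tested genes with at least 10 such neighbours. In NO this held for 5 of 9, against 65.4%. The neighbourhood of RNU7-1, which includes the overlapping C12orf57, had 23 genes higher and 0 lower of 48 tested in CN, with a median log2 fold change of 0.50. That of SLBP had 11 higher and 0 lower of 33, with a median of 0.33. Around ZNF473, 25 genes were lower and 1 higher of 61 (median -0.41), around SYMPK 11 were lower and 4 higher of 51 (median -0.29), and around CPSF3 8 were lower and 3 higher of 20 (median -0.20). Of all genes tested in CN, 22.3% were lower and 15.6% higher, and the 21.6% lower around SYMPK is near that share. CSTF2 (0.16 against a median of 0.20) and CASP8AP2 (0.20 against 0.13) lay closest to their neighbours. LSM11 differed in sign from the median of its 16 tested neighbours (0.37), of which 4 were called lower and 2 higher, and LSM10 (-0.67) and SYMPK (-0.79) lay further from 0 than theirs (-0.03 and -0.29). The part of the neighbourhood in the values of the 10 genes was not tested.

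**Figure D5:**
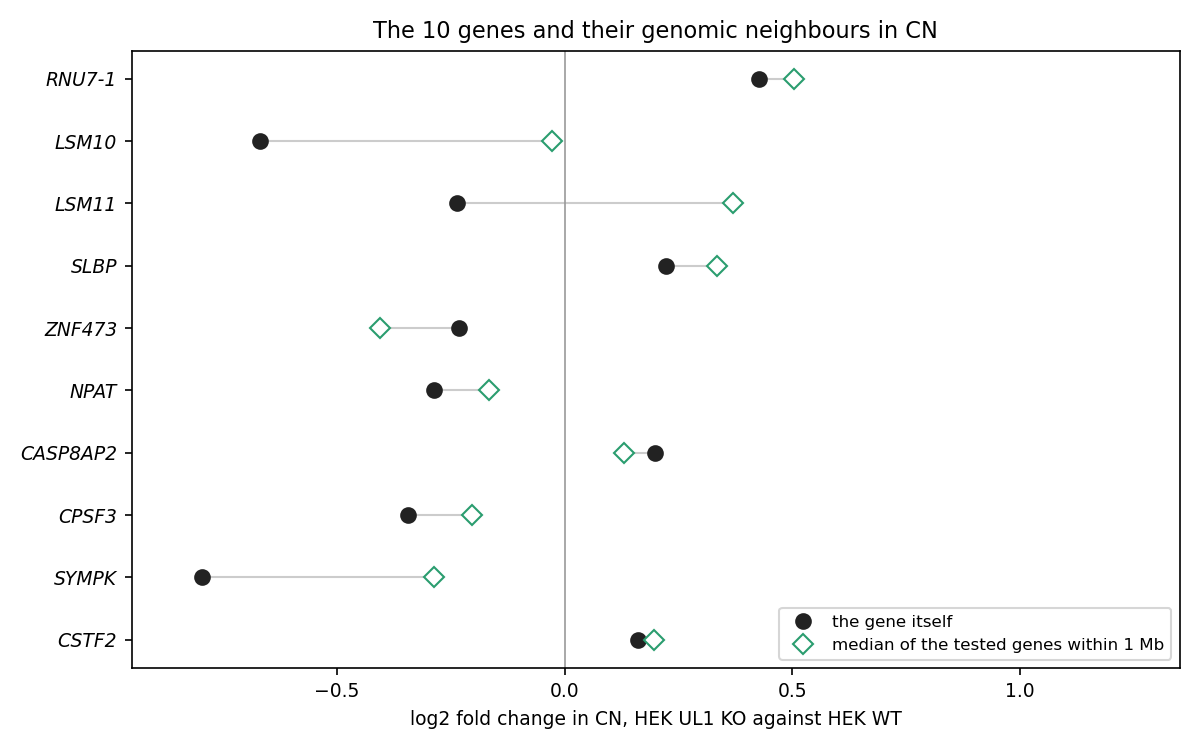
Log2 fold change in CN of HEK UL1 KO against HEK WT (horizontal axis) of each of the 10 genes (filled circles) and the median of the other tested genes within 1 Mb on either side (open diamonds), joined by a grey line. The signs are the same for 9 genes, and LSM11 is the exception, with -0.24 against 0.37.

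As a description over the 12 libraries, the log2 CPM of RNU7-1 varied most closely with those of PSIP1P1 and AHNAK (Pearson r = 0.814 for both), MAPKAPK5-AS1 (0.77), RPL36AP13 (0.766) and SLC3A2 (0.759), among 18067 genes with a mean of at least 50 counts. The 99th percentile of r over those genes was 0.601. The libraries share fractions, genotypes and depth, and RNU7-1 had 2 to 27 reads in each of them.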

How the data were processed

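For each genotype, RNA of both fractions was sequenced in 3 replicates, which the series calls biological, from libraries of total RNA made without rRNA depletion. According to the submitters' processing notes and the paper's methods, single reads of 75 bases were checked with FastQC 0.11.4, trimmed with cutadapt 3.7, aligned to GRCh38 with STAR 2.7.8 (at most 20 alignments for a read), and assigned to genes with featureCounts. What the authors deposited are unnormalised counts of reads for each gene, in a table for NO and another for CN. The counting options, strand setting and annotation version are not given in the sources used here. All 12 columns were matched to samples by their labels.

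The genes, their lists and the tests were chosen with earlier results of these data known. The genotypes were compared within NO and within CN, and the fractions within HEK WT, with edgeR's quasi-likelihood F test (R 4.3.3, edgeR 4.0.16, limma 3.58.1) on genes kept by filterByExpr (minimum count 10, minimum total count 15), with TMM factors, no replicate block and Benjamini-Hochberg adjustment over all genes tested. Genes were called at an adjusted p under 0.05, and the SE was taken as the absolute log2 fold change over the square root of F. The interaction was fitted over all 12 libraries. Ratios and CPM of RNU7-1 were tested by exact permutation of the libraries (two-sided), and the interval of its ratio is an exact one at 95%. Alternatives were DESeq2 1.42.0 with its defaults, total counts, TMM without rRNA genes, no filter, at least 10 counts in every library, the replicate number as a block, all 12 libraries in one fit, and leaving out each library in turn. In each list of the pathway, at most the 4 called genes with the largest change in CN are named, and beyond that rule CPSF2, for its role beside CPSF3, and STRAP, as the gene of its list that rose, were named after their values were seen. The neighbours of the 10 genes, C12orf57, ATM, VRK3 and the U7 pseudogenes were also looked at after the values were seen. Positions are from RefSeq and GENCODE 44, both on GRCh38, exon lengths and sequences from GENCODE 44. The figures were drawn with Python 3.11.15, pandas 2.3.3 and matplotlib 3.10.9. The procedure was tested on simulated counts, in which changes were recovered less often in NO, in the interaction and between the fractions than in CN. There edgeR recovered none of the changes in NO or in the interaction. The share of false calls with DESeq2 was higher in NO, in the interaction and between the fractions than in CN. No replicates were identical, with a chi-square per gene of at least 17.1 between libraries of one group.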

Additional observations from a re-analysis of the deposited data

How the results depend on the processing

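In CN, the log2 fold change of each of the 10 genes kept its sign in every alternative run. In NO and between the fractions it did not. With total counts the log2 fold change in NO was 0.52 for SLBP, 0.11 for NPAT, 0.47 for CASP8AP2, 0.071 for CPSF3 and 0.52 for CSTF2. With TMM without rRNA genes it was 0.011 for SLBP and 0.032 for CSTF2, with at least 10 counts in every library 0.11 for SLBP, 0.041 for CASP8AP2 and 0.12 for CSTF2, and with all 12 libraries in one fit 0.048 for SLBP and 0.070 for CSTF2. When 1 library was left out it ran from -0.29 to 0.16 for SLBP, from -0.43 to 0.18 for CASP8AP2 and from -0.24 to 0.17 for CSTF2. Between the fractions in HEK WT, ZNF473 was at 0.10 with total counts and at 0.030 with at least 10 counts in every library, and RNU7-1 was at -0.028 without the filter and from -0.59 to 0.74 when 1 library was left out.

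The counts of calls moved with the processing in NO, in CN and between the fractions. The 10 genes gave 1 call in NO with DESeq2, without the filter and with all 12 libraries in one fit, where 4.22, 2.02 and 4.61% of all genes were called. They gave 0 to 5 when 1 library was left out, with 5 without replicate 3 of HEK WT, where 25.1% of all genes were called, against 0.343 to 0.769% without another library. The other genes of the pathway gave 3 calls in NO with DESeq2, 2 without the filter, 3 with all 12 libraries and 0 to 24 when 1 library was left out. Histone genes gave 5 calls in NO with DESeq2, 0 with total counts, 12 without the filter, 0 with at least 10 counts in every library, 8 with all 12 libraries and 1 to 46 when 1 library was left out. Of all genes, 0.0287% were called in NO with total counts and 0.563% with at least 10 counts in every library. In CN, total counts gave 1, 9 and 10 calls for the 10 genes, the other genes of the pathway and the histone genes, where 19.9% of all genes were called, and all 12 libraries in one fit gave 1, 7 and 9, against 11.2%. The 10 genes gave 2 to 5 calls in CN when 1 library was left out, against at least 25.6% of all genes in each case, with 2 without replicate 1 or replicate 2 of HEK WT. Between the fractions they gave 0 calls with total counts (23.8% of all genes), 2 with TMM without rRNA genes (49.3%), 1 with at least 10 counts in every library (40.2%) and 2 to 7 (40.6 to 63.1%) when 1 library was left out, with 3 without replicate 1 of NO or of CN and 2 without replicate 2 or replicate 3 of CN. The causes of these shifts were not tested.

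The replicate numbers did not pair the libraries. Libraries that share a number deviated from their groups with a correlation of -0.48 to -0.225 between genotypes in NO, of -0.276 to -0.0456 in CN and of -0.456 to -0.0844 between the fractions of HEK WT, and no library correlated best with its own number. With the replicate block, the 10 genes gave 0 calls in NO, 3 in CN and 1 between the fractions. The other genes of the pathway gave 0 in NO and 28 in CN, and the histone genes 3 in NO and 22 in CN. With that block, 0.646% of all genes were called in NO, 31.0% in CN and 32.6% between the fractions. CSTF2 in NO was at 0.00064 with it. Depth limits RNU7-1 most, with 132 reads over the 12 libraries.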

Other observations

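SYMPK and ZNF473 lie on the same arm of chromosome 19 as the knocked out gene, 4.51 and 8.72 Mb beyond the end of HNRNPUL1 (chr19:41262557-41307787). Of the 426 genes tested in CN between HNRNPUL1 and that end of the chromosome, 91 were lower and 41 higher in HEK UL1 KO, which is 21.4 and 9.62%, against 22.3 and 15.6% of all genes tested, with a median log2 fold change of -0.18. In NO, 6 of 561 were lower and 2 higher, against 0.574 and 0.365% of all genes, with a median of -0.38. These positions were looked at after the values were known.

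In CN, IAH1, beside CPSF3 on chromosome 2, fell (log2 fold change -0.68, SE 0.14, edgeR adjusted p = 0.00387). ITGB1BP1, also beside CPSF3, was at 0.13 (SE 0.11, edgeR adjusted p = 0.409). Beside SLBP, TACC3 was at 0.27 (SE 0.11, edgeR adjusted p = 0.0804).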
